A study of Mus musculus with 5 samples.

Results

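The cells described here are the T cells of mouse colon tumors under chemotherapy, taken from 4 single-cell RNA-seq libraries made with the inDrop droplet method. The values are raw UMI counts, where a UMI (unique molecular identifier) marks 1 captured RNA molecule. Cells were kept with at least 500 genes and at most 15% mitochondrial counts, and members were chosen by their raw counts, with at least 2 UMIs summed over Cd3d, Cd3e, Cd3g, Cd2 and Lck and at most 1 UMI summed over Csf1r, Csf3r and Cd79a. The rule took 189 of the 7396 kept cells: 13 of 748 at day 1 replicate 1, 40 of 2403 at day 1 replicate 2, 5 of 1419 at day 3 and 131 of 2826 at day 6. These marker counts chose the members, so they are given as a description and support nothing. The mice were WT in genotype, the tumors were induced with the mutagen azoxymethane and the colitis agent dextran sodium sulfate (AOM/DSS), and all 4 libraries came from tumors under 5FU and Irinotecan, with no untreated tumor library analysed here. The study treats day 1 as early treatment and day 3 and day 6 as late treatment, in days after treatment by its methods. Its tumor dissociation kept crypt fragments held back by a filter and discarded what passed through, so the lymphocytes are those that came along with an epithelial fraction. Day 3 and day 6 are 1 library each, and cells of 1 library are not replicates, so genes and subsets within day 6 carry no test.

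T cells recognize antigen through a receptor of alpha and beta chains or of gamma and delta chains, which signals into the cell through the Cd3 chains and the kinase Lck. Cd4 marks helper and regulatory T cells, Cd8a and Cd8b1 mark cytotoxic T cells, and Foxp3 is the transcription factor of regulatory T cells. In the colon, gamma-delta T cells and T helper 17 cells are known sources of interleukin-17, and the epithelium holds resident lymphocytes that include Cd8a-bearing and innate-like cells.

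The label was checked against T cell receptor constant genes, which the rule did not use. A UMI of at least 1 of these 7 genes was found in 4 of 13 members of day 1 replicate 1, 15 of 40 of day 1 replicate 2, 2 of 5 of day 3 and 111 of 131 of day 6. The markers that chose the members are given as a description. Of the 58 members outside day 6, 39 carried Lck and none of the other 4 markers: 11 of 13 at day 1 replicate 1, 24 of 40 at day 1 replicate 2 and 4 of 5 at day 3. At day 6 it was 19 of 131. A UMI of any Cd3 chain was found in 1, 9, 1 and 100 members of day 1 replicate 1, day 1 replicate 2, day 3 and day 6. Across these libraries, 2, 16, 1 and 112 members had a UMI of a Cd3 chain or of Cd2, the adhesion receptor of T and NK cells. Outside day 6, the members with these defining markers were thus 19 of 58.

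The members with Lck alone at day 1 had epithelial features. They held a median of 29512 UMIs in replicate 1 and 20550.5 in replicate 2, against 2913 and 3563 in all other kept cells of those libraries. At least 2 UMIs of Cdh1, the cadherin of epithelial cells, were found in 10 of 11 and 23 of 24 of them. Among all other kept cells, which were shallower, it was 493 of 735 and 1359 of 2363. Ptprc, which encodes the pan-leukocyte antigen CD45, was found in 2 of 11 and 0 of 24 members with Lck alone. The latter allows up to 12.5% of such cells with a UMI. Of the 16 members with Cd3 or Cd2 in replicate 2, 10 carried it. In the members with Lck alone, receptor constant genes stood at 40.4 and 9.39 CPM (a gene's UMIs scaled to the summed UMIs of the cells), beside 14.0 and 15.1 CPM of all other kept cells. Genes with the highest ratio to the other kept cells, named after their values were seen, were the metallothionein Mt4 in replicate 1, with a ratio of 7.11, and the Paneth cell defensin Defa23 in replicate 2, with a ratio of 8.10 in 13 of 24 cells. Defensins are near-identical copies, and reads can be split between them. Cdh1 cells that were not members also carried Lck at a low level, 9.71, 7.01, 3.39 and 6.69 CPM in the order of the libraries, with 42, 93, 19 and 78 Lck UMIs against 1, 5, 3 and 35 of the Cd3 chains.

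**Figure D1:**
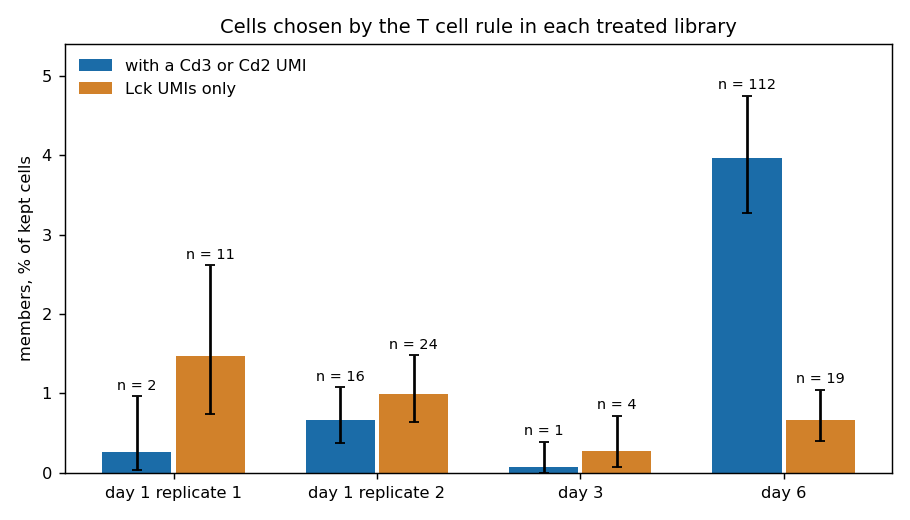
Members as a percent of kept cells (y axis) in the 4 treated libraries (x axis), split into those with a Cd3 or Cd2 UMI and those with Lck UMIs only. Bars start at 0, and error bars are exact 95% binomial intervals that cover counting error only. Members with Lck only outnumber the others at day 1 and day 3, and at day 6 they are 19 against 112.

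**Figure D2:**
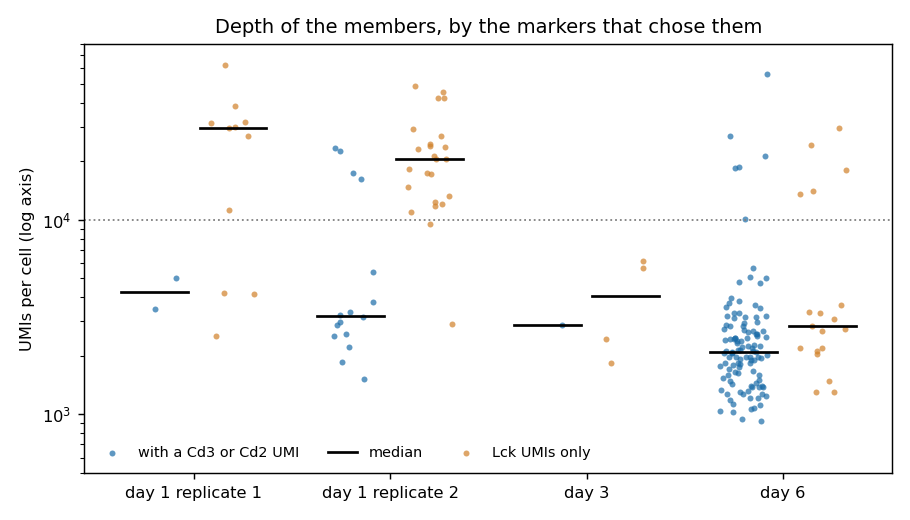
UMIs per member (log axis) by library and by the markers that chose it, with 1 point per cell and a black line at the median. The dotted line is at 10000 UMIs, which 8 of 11 and 22 of 24 members with Lck only passed at day 1, and 5 of 19 at day 6. Of all 131 members at day 6, 11 passed it.

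The share of members among kept cells was 1.74% (exact 95% binomial interval 0.929 to 2.95) and 1.66% (1.19 to 2.26) at day 1, 0.352% (0.115 to 0.820) at day 3 and 4.64% (3.89 to 5.48) at day 6. Intervals cover counting error only. The late libraries lay on both sides of the early ones. The mean was 1.70% ± 0.0519 (SD, n = 2) early and 2.49% ± 3.03 (SD, n = 2) late, a difference of 0.793 percentage points with p = 1 in a two-sided exact permutation test, in which 2 against 2 libraries cannot go below 0.333. Members with a Cd3 or Cd2 UMI made up 0.267%, 0.666%, 0.0705% and 3.96% of kept cells, with a difference of 1.55 percentage points (exact permutation p = 1). Library structure was crossed with time, since a single index was used for the first day 1 replicate and for day 3, and dual indexes for the other 2 libraries. Among single index libraries the share of Cd3 or Cd2 members changed by -0.197 percentage points from early to late, and among dual index libraries by 3.30. Each of these is 1 library against 1, without a test. Without day 6 the late minus early difference in all members was -1.35 percentage points.

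With every cell thinned to 1000 UMIs, the rule took 0, 5, 0 and 72 cells in the order of the libraries, 2.71% of the 2654 day 6 cells that were deep enough (172 shallower cells of day 6 and none of the other libraries were left out). The unthinned counts were 13, 40, 5 and 131. Just outside the threshold, 212 cells of day 6 had exactly 1 marker UMI, and 56 of them had a UMI of a receptor constant gene. Just inside it, 46 members had exactly 2 marker UMIs and 31 of them had such a UMI, as had 80 of the 85 members with 3 or more.

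Day 6 members were shallow cells. Their median depth was 2191 UMIs (10th percentile 1274, 90th percentile 5045, highest 56340), against 3021 in all other kept cells of day 6. The 11 members above 10000 UMIs held 48.0% of the members' UMIs. RNA of other cells was present throughout: Igkc, an immunoglobulin gene of plasma cells, had a UMI in all 131 members and in all 2695 other kept cells, and the columnar keratin Krt8 in 128 of 131 members. The 5 columnar epithelial markers with a column summed to 9417 CPM in members and 9953 in other cells, with none at 0, and to 5893 CPM without the members above 10000 UMIs. The 5 squamous markers summed to 4560 CPM in members and 9114 in others. The part of doublets and free RNA in the levels of these genes was not tested. Macrophage and monocyte markers summed to 166 CPM in members and 798 in others (the rule used Csf1r), with Adgre1 at 0. B cell markers (the rule used Cd79a) summed to 691 and 1002 CPM, with Ms4a1 at 0. Fibroblast markers summed to 68.9 and 278 CPM, with Col1a1 at 0. Of the barcodes of the 131 members, 2 also occurred in another treated library, and pairs of libraries shared 4 to 42 barcodes.

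T cell receptor genes, which the rule did not use, led the day 6 members. A UMI of at least 1 of the 7 constant genes was found in 111 of 131 members (84.7%, interval 77.4 to 90.4), against 15.3% of the 118 Csf1r cells of day 6 (not members, at least 2 Csf1r UMIs), whose median depth of 5073 UMIs was greater. Trac, the alpha chain, stood at 474 CPM (exact Poisson interval 417 to 537) in members and 6.17 in all other kept cells, with a UMI in 77 of 131 members, 6.78% of Csf1r cells and 3.52% of Cdh1 cells. Trbc2, a beta chain, was in 77 members at 398 CPM and Trbc1, its near-identical copy, in 35 members at 140 CPM, so that reads of the beta chain can be split between them. Trdc, the delta chain, was in 25 members at 300 CPM against 7.14 in other cells. Tcrg-C1, Tcrg-C2 and Tcrg-C4, gamma chains that resemble each other, were in 27, 17 and 22 members. Alpha or beta chains alone were found in 70 members, gamma or delta chains alone in 6, both in 35 and neither in 20. The median depth of those with neither was 4124 UMIs, above that of the members with a receptor UMI, 2132.

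Genes were compared with all other kept cells of day 6 by the ratio of CPM with 20 added to each. Over all 9435 genes with at least 5 UMIs in members, without the 8 genes of the rule, 3.52% had a ratio of at least 2 and the median ratio was 0.983. Over the 120 members up to 10000 UMIs, 7.54% of 7754 genes reached a ratio of 2. The filter was on the members' own counts, so a gene low in members could not enter. Of the 20 genes of receptor signalling, 19 were counted here. Of these, 17 passed the filter and 16 reached a ratio of 2, with a median of 4.53. Lat, the membrane adaptor of the receptor, stood at 208 CPM against 2.32 (ratio 10.2) and was found in 64 members. Skap1, an adaptor that links the receptor to adhesion, had a ratio of 10.5 in 59 members. Thy1, a surface antigen of mouse T cells, had a ratio of 11.5 in 82 members. Cd28, the costimulatory receptor, reached 3.23 in 21 members. Ptprc was found in 72 of 131 members at 274 CPM, and in 78.8% of Csf1r cells.

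**Figure D3:**
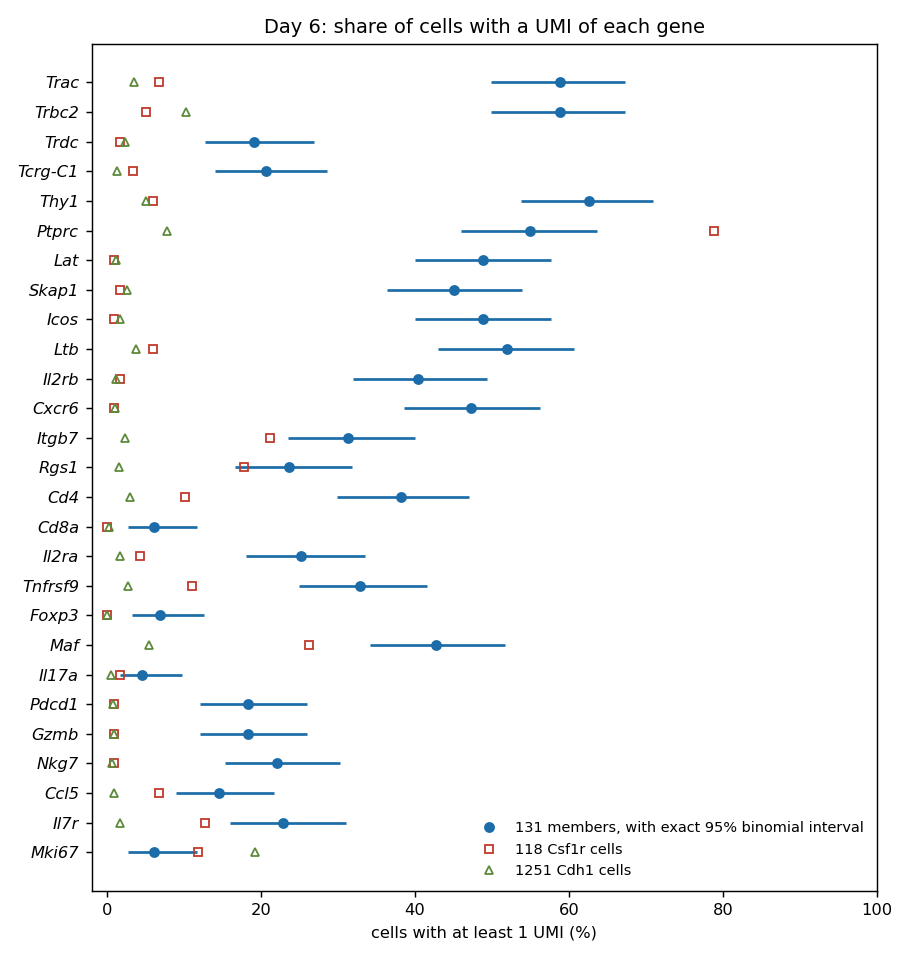
Percent of cells with at least 1 UMI (x axis) of 27 genes (y axis) in day 6, for the 131 members with exact 95% binomial intervals, 118 Csf1r cells and 1251 Cdh1 cells. Median depths were 2191, 5073 and 7552 UMIs. Trac, Thy1, Lat, Icos and Cxcr6 lie far right of both other cell classes, whereas Mki67 does not.

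The 30 genes with the highest ratios, with at least 20 UMIs in members, included receptor genes, costimulatory and cytokine receptors, and hormone genes. Cxcr6, a chemokine receptor of resident T cells, stood at 348 CPM (299 to 403) against 3.86 in other cells, a ratio of 15.4, and was found in 62 members, 0.847% of Csf1r cells and 1.04% of Cdh1 cells. Icos, the inducible costimulator, had a ratio of 11.5 in 64 members. Il2rb and Il2rg, receptor chains for interleukin-2 and interleukin-15, had ratios of 9.79 and 7.80. Ltb, lymphotoxin beta, was found in 68 members with a ratio of 9.02. Tnfrsf9, the costimulatory receptor 4-1BB, was found in 43 members with a ratio of 7.31. Some leading genes rested on a few cells. Gcg and Insl5, hormones of enteroendocrine cells, took 288 of 300 and 293 of 307 UMIs from 1 cell. Penk, the precursor of enkephalins, took 82 of 104 UMIs from 1 cell with Lck alone and was found in 9 members in all, with a ratio of 9.90 that fell to 3.46 among members with Cd3 or Cd2.

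Each day 6 member was placed once, in the order Trdc, Cd8 (Cd8a or Cd8b1), Foxp3 and Cd4, by at least 1 UMI. The Trdc gate took 25 members (19.1%, exact binomial interval 12.7 to 26.9), the Cd8 gate 7 (5.34%, 2.18 to 10.7), the Foxp3 gate 9 (6.87%, 3.19 to 12.6), the Cd4 gate 43 (32.8%, 24.9 to 41.6) and none 47 (35.9%, 27.7 to 44.7). These intervals cover counting error among cells of 1 library, and the shares change with the marker and gate thresholds, so they do not rank the gates. A cell of this depth shows few of its transcripts, and with at least 2 UMIs required, 60.3% of members had no gate. Cd4 was found in 10.2% of Csf1r cells and 3.04% of Cdh1 cells, and Trdc in 1.69% and 2.40%. Foxp3 was found in 0 of 118 Csf1r cells, which allows up to 2.54% of such cells with a UMI.

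Cells of the Trdc gate shared genes that the gate did not use. A gamma chain was found in 23 of 25, against 5 of 7 in the Cd8 gate, 0 of 9 in the Foxp3 gate, 3 of 43 in the Cd4 gate and 8 of 47 with no gate. A Cd3 chain was found in all 25, but the rule counted these chains. Trac was found in 8, Trbc2 in 14 and Trbc1 in 7, and 20 of the 25 carried an alpha or beta chain. Blk, a Src-family kinase that gamma-delta T cells of the interleukin-17 kind carry, stood at 438 CPM in the gate and 13.3 in the other members, in 15 of 25 and 3 of 106 cells. Cxcr6 was found in 23 of 25 cells at 1012 CPM, against 39 of 106 at 240 CPM. Pdcd1, the checkpoint receptor PD-1, was found in 13 of 25 at 315 CPM, against 11 of 106 at 37.8 CPM. Ramp1, a part of the receptor for calcitonin gene-related peptide, was found in 10 of 25 and in 12 of 106. Sox13, a transcription factor of gamma-delta T cells, was found in 8 of 25 and in 4 of 106. Among these Trdc cells Lck itself was found in 5 of 25, and in 88 of 106 of the other members. Lck is a gene of the rule, and the members with Lck alone all lay among those others. The histone gene Hist1h2ap was among the leading genes of the gate through 1 cell that held 180 of its 202 UMIs.

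Il17a, the gene of interleukin-17A, was found in 6 day 6 members with 24, 12, 7, 2, 1 and 1 UMIs in cells of 1974 to 3813 UMIs. The counts were uneven, and the first 3 cells held most of the UMIs. Of the 6 cells, 5 were in the Trdc gate and 1 had no gate. A gamma chain was found in 5, Blk in 5, Pdcd1 in 4 and Cd4 in 0. Trbc2 was found in 5 and Trac in 2. All 6 carried a Cd3 chain, which the rule counted. Il17f was found in 5 cells, 1 of them with Il17a and with Trdc. Of the 20 genes of the interleukin-17 programme, 17 were counted here. Of these, 16 passed the filter and 8 reached a ratio of 2 against other kept cells, with a median of 2.03. Maf, a transcription factor of several effector T cells, had a ratio of 5.62 in 56 members, and Il23r, the receptor of interleukin-23, 2.21 in 9 members.

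Regulatory genes were found beyond the cells with Foxp3. Foxp3 had 12 UMIs in 9 members, with 1 or 2 per cell. Of these 9 cells, 5 carried Cd4, 7 carried Trac, 0 carried Trdc or a gamma chain, 7 carried Icos, 7 carried Tnfrsf9, 6 carried Ikzf2 (Helios, a transcription factor of regulatory T cells), 5 carried Tnfrsf18 (the receptor GITR), 3 carried Il2ra (the interleukin-2 receptor alpha chain) and 2 carried Ctla4. Ikzf2 was also found in 48 of the other 122 members and in 52.1% of Cdh1 cells. Tnfrsf9 stood at 1058 CPM in the gate and 153 in the other members, Ccr9, a gut-homing receptor, at 899 CPM and 47.6 CPM in 4 of 9 and 13 of 122 cells. Of the 17 genes of the regulatory list, 16 were counted here. Of these, 12 passed the filter and 8 reached a ratio of 2 against other kept cells, with a median of 2.18. Il2ra was found in 33 members at 107 CPM against 3.02, of which 13 carried Cd4, 8 carried Trdc and 3 carried Foxp3. Izumo1r, the folate receptor 4 of regulatory and anergic T cells, was found in 16 members at 61.2 CPM against 0.322. Il10 had 20 UMIs in 7 members, 14 of them in 1 cell of the Cd4 gate.

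The Cd4 gate held 43 cells under the rule, but with at least 2 Cd3 UMIs it held 23 of 68 members and the Trdc gate 25, and with gates at 2 UMIs both held 21 of 131. Alpha or beta chains were found in 40 of its 43 cells. Lat was found in 28 of 43 at 338 CPM, against 36 of 88 at 151 CPM in the other members. Cd5, an inhibitory receptor of T cells, was found in 16 of 43 and 7 of 88, and Tnfrsf4, the costimulatory receptor OX40, in 13 of 43 and 7 of 88. Maf was found in 25 of 43 and 31 of 88. Gzmb was found in 4 of 43 cells, and in 20 of 88 of the other members. The genes with the highest ratios in this gate beside Cd4 included Nos2, Upp1 and Clca4b, of which 1 cell held 92 of 94, 153 of 168 and 402 of 421 UMIs. Among members with no gate, 8 of 47 held over 10000 UMIs, and the leading genes were Psca, Ppbp, Gcg and Insl5, each with most of its UMIs in few cells. Gcg and Insl5 are made by enteroendocrine cells and Psca by epithelium, so these lists name no T cell subset.

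Of the 18 genes of the cytotoxic list, 15 passed the filter and 10 reached a ratio of 2, with a median of 2.22. Lamp1, a lysosomal membrane protein that marks released granules, was found in 73 members at 438 CPM and was not higher than in other kept cells, at 526 CPM. Gzmb, granzyme B, was found in 24 of 131 members (216 CPM against 2.83, ratio 10.3), and 1 cell held 34 of its 113 UMIs. Of the 24 cells, 9 carried Trdc, 7 carried Cd4, 3 carried Cd8a, 3 carried Foxp3 and 3 carried Ncr1. Gzma, granzyme A, was found in 4 members, with 34 of 37 UMIs in 1 cell. Nkg7, a granule protein, was found in 29 members with a ratio of 5.88, and Ccl5, a chemokine of effector lymphocytes, in 19 with a ratio of 8.44. Ifng, interferon gamma, had 28 UMIs in 9 members with at most 7 in a cell.

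Cd8a or Cd8b1 was found in 9 members, 2 of which also carried Trdc and were placed in that gate. All 9 carried Trac, 8 carried Nkg7, 7 carried Ccl5, 7 carried a gamma chain and 5 carried Itgae, the integrin that holds lymphocytes in the epithelium. Ccl5 stood at 2272 CPM in the 7 cells of the gate and 101 in the other members, and Cd7, a surface protein of T and NK cells, at 3158 CPM and 91.1 CPM, with 29 of 57 UMIs in 1 cell. Pdcd1, Icos and Ncr1 were found in 0 of the 7 cells, which allows up to 42.9% of such cells. Ncr1, which encodes the NK receptor NKp46, was found in 7 other members with 8, 6, 5, 3, 1, 1 and 1 UMIs. None of these carried Cd8a, 2 carried a Cd3 chain, 6 carried Cd7, 6 carried Fcer1g and 5 carried Tyrobp, which are signalling adaptors of NK cells. All 7 had a UMI of the beta chain or Trac, with Trbc2 in 5, Trbc1 in 4 and Trac in 1. The rule takes Cd2 and Lck, which NK cells also carry, so it does not part T cells from NK cells or innate lymphoid cells.

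**Figure D4:**
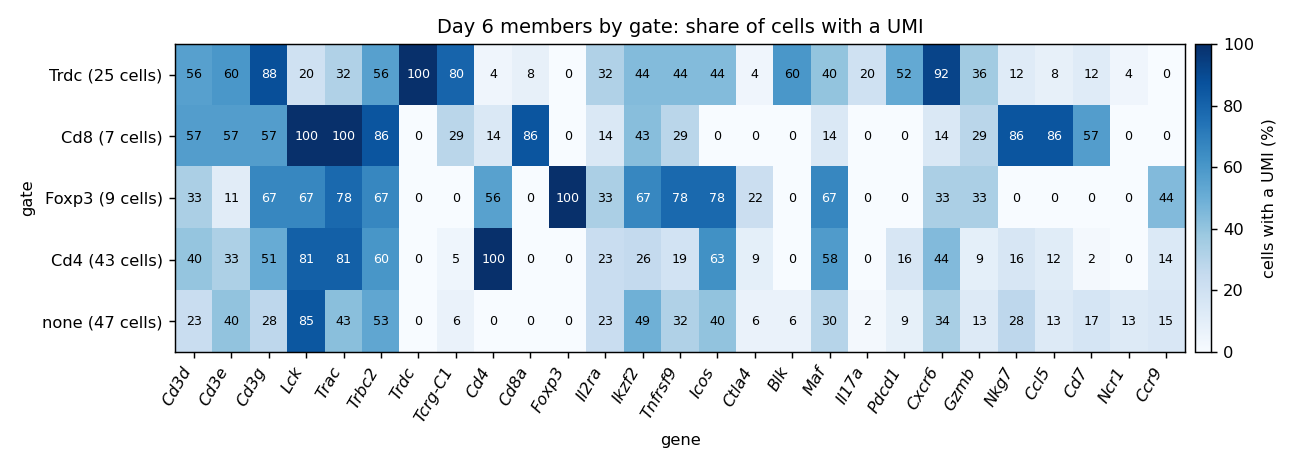
Percent of cells with a UMI (color and number) of 27 genes (x axis) in the 5 gates of the 131 day 6 members (y axis, with the number of cells). The gate genes Trdc, Cd8a, Foxp3 and Cd4 are fixed by the gates. Blk, Tcrg-C1, Pdcd1 and Cxcr6 are highest in the Trdc row, Nkg7 and Ccl5 in the Cd8 row, and Tnfrsf9 and Icos in the Foxp3 row. The Cd8 and Foxp3 rows rest on 7 and 9 cells.

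Checkpoint, residency and activation genes followed. Of 12 exhaustion and checkpoint genes, 11 passed the filter and 7 reached a ratio of 2, with a median of 2.16. Pdcd1 was found in 24 members with a ratio of 4.24, 13 of them with Trdc, 7 with Cd4 and 0 with Foxp3. Havcr2 and Lag3, further inhibitory receptors, were found in 12 members each, at 30.6 and 24.9 CPM. Of 16 residency and trafficking genes, 15 were counted here. All 15 passed and 9 reached a ratio of 2, with a median of 2.44. Itgae was found in 28 members (ratio 4.40), Itgb7, its partner chain, in 41 (4.95), and Rgs1, a regulator of chemokine signalling, in 31 (5.26). S1pr1, which guides exit from tissue, was found in 5 members at 21.0 CPM against 11.9 in other cells, and Ccr7, the lymph node homing receptor, in 6 members at 19.1 CPM against 4.31. Of the 10 naive and memory genes, all of which passed the filter, 3 reached a ratio of 2: Il7r, the interleukin-7 receptor (3.79, in 30 members), Satb1, a chromatin organizer of T cells (4.80, in 33), and Lef1, a transcription factor of naive T cells (2.24, in 16). Of 18 activation and immediate early genes, 17 passed and 7 reached a ratio of 2, among them Icos, Ltb and Tnfsf8, the CD30 ligand (4.75, in 20 members). The immediate early genes Jun, Egr1 and Dusp1 had ratios of 0.932, 0.958 and 1.06.

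Without the members above 10000 UMIs, the counts that reached a ratio of 2 were 5 of 10 naive and memory genes, 9 of 11 checkpoint genes, 11 of 15 residency genes, 11 of 12 regulatory genes, 14 of 15 cytotoxic genes and 11 of 16 genes of the interleukin-17 programme, against the background of 7.54%.

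Of 10 genes of the T helper 1 list, 9 passed the filter and 4 reached a ratio of 2, with a median of 1.88: Ifng (3.65), Stat4 (3.77), Cxcr3 (2.78) and Ccl4 (2.96), of which Ccl4 had 54 of 60 UMIs in 1 cell and a ratio of 0.552 among members with Cd3 or Cd2. Of 10 genes of the T helper 2 and ILC2 list, 9 were counted here and 4 passed. A ratio of 2 was reached by 2, the transcription factor Gata3 (2.57, in 20 members) and the receptor Klrg1 (2.58, in 9). Il4 and Il13, named after their values were seen, had no UMI in 131 members, which allows up to 2.29% of such cells with a UMI.

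The p53, fluorouracil and irinotecan, proliferation and heat shock lists held no gene at a ratio of 2 in these cells, beside 3.52% of all 9435 genes. With so low a share over all genes, a count of 0 in lists of this size does not set them apart. Of 10 p53 targets, 7 passed the filter and 0 reached a ratio of 2, with a median of 1.06, and Cdkn1a, the cell cycle inhibitor p21, stood at 419 CPM in members and 398 in other cells. Phlda3, a p53 target that restrains growth signalling, had the ratio of 0.417. Of the 7 fluorouracil and irinotecan genes, 6 passed and 0 reached a ratio of 2, with a median of 1.01. Tyms, the target of fluorouracil metabolites, stood at 61.2 CPM against 57.8, and Top1, the target of irinotecan, at 143 against 151. Of 12 proliferation genes, all passed and 0 reached a ratio of 2, with a median of 0.853. Mki67, a marker of cycling cells, was found in 8 members (6.11%), against 11.9% of Csf1r cells and 19.3% of Cdh1 cells. Median depths were 2191, 5073 and 7552 UMIs in that order, so these shares do not compare cycling between the classes. Of the 22 Mki67 UMIs in members, 1 deep member of the Trdc gate held 11. Of 10 interferon response genes, all passed and 1 reached a ratio of 2, with a median of 1.75 beside 0.983 over all genes. That gene was Ifit3 (2.24), of whose 34 UMIs 1 cell held 20 and whose ratio was 0.722 without the members above 10000 UMIs. Without those members, 2 of 8 genes of this list reached a ratio of 2, among them Bst2 (2.28), against 7.54% of all genes. Of 6 heat shock and dissociation genes, 0 reached it, with a median of 1.03. The part of other cells' RNA in these levels was not tested, so a ratio near 1 does not show that T cells express these genes at the level of other cells.

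Unsupervised grouping of the 131 day 6 members gave 8 sub-clusters of 26, 26, 19, 14, 14, 12, 11 and 9 cells, described here by their genes without a test. Sub-cluster 5 (14 cells) held 6 markers of the gamma-delta list, 4 of them among its 10 leading genes (Il17a, Trdc, Tcrg-C1 and Blk). Penk led it through 1 cell. Trdc was found in 7 of its 14 cells and Cd4 in 5, and it held 3 markers of the regulatory list, so it was left without a name. Il17a was found in 4 of 14 cells of this group, Icos in 11, Cxcr6 in 11, Il2ra in 10 and Trac in 4, and Il10 and Ifng were also among its 10 leading genes, with 14 of 17 Il10 UMIs in 1 cell. Sub-cluster 7 (11 cells) was led by Cd7 (10 of 11 cells, 6 of the other 120), with Ncr1 in 6 cells, Fcer1g in 9, Tyrobp in 8, Ctsw, a cathepsin of cytotoxic cells, in 8, Xcl1, a chemokine of NK and Cd8 cells, in 5, Gzmb in 5 and Cd8a in 4. It held 8 markers of the NK and ILC1 list, but Cd8a was among its leading genes and 7 of its cells carried a Cd3 chain, so it was left without a name. Sub-clusters 1 and 6 (26 and 12 cells) each had 4 markers of the regulatory list, among them Tnfrsf4, Tnfrsf18 and Tnfrsf9, with Foxp3 in 2 of 26 and 1 of 12 cells. Sub-cluster 1 was led by Trdc and Tnfrsf9 together with Cd4, which was in 16 of its cells, and sub-cluster 6 by Itgb7, Tnfrsf18 and Ccr9, with Icos in 11 of its 12 cells, and neither was named. Sub-cluster 3 (19 cells) was led by Gzma through 1 cell, followed by Ms4a6b and Izumo1r, with Trac in 15 of its cells. Sub-clusters 2, 4 and 8 were led by genes of other cell types: Psca, Ppbp and Ltf in 26 cells, of which 1 held 434 of 674 Psca UMIs, the plasma cell genes Jchain, Iglc1 and Igha in 14 cells, of which 1 cell held 460 of 591 Jchain UMIs and 382 of 385 Iglc1 UMIs, and Gcg, Insl5 and Clca4b in 9 cells of a median 18466 UMIs.

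**Figure D5:**
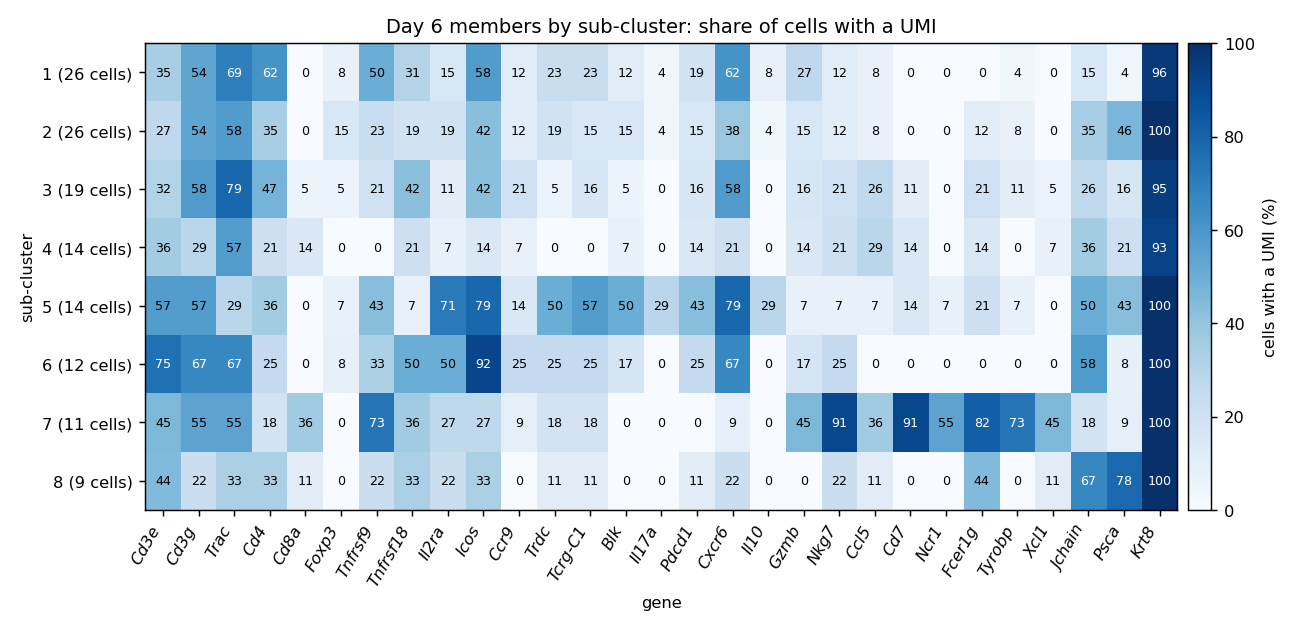
Percent of cells with a UMI (color and number) of 29 genes (x axis) in the 8 sub-clusters of the 131 day 6 members (y axis, with the number of cells). Trdc, Blk and Il17a are highest in sub-cluster 5, Cd7, Nkg7, Fcer1g, Tyrobp and Ncr1 in sub-cluster 7, and Krt8 is found in nearly all cells of every sub-cluster.

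Outside day 6, day 1 replicate 2 held the most members with Cd3 or Cd2, 16 cells, and day 6 held 112. Without the members above 10000 UMIs, which were 4 and 6 of them, 12 cells with 35497 UMIs and 106 cells with 237345 UMIs remained, with median depths of 2921.5 and 2071 UMIs. The values of these 2 libraries are given side by side without a test. Several genes of the naive and memory list were found in a greater share of the day 1 cells. Satb1 was found in 9 of 12 cells at 1042 CPM (exact Poisson interval 734 to 1437) and in 28 of 106 at 185 CPM (135 to 249). Lef1 was found in 7 of 12 cells at 592 CPM (366 to 904) and in 13 of 106 at 75.8 CPM (44.9 to 120). Klf2, a transcription factor of quiescent and recirculating T cells, was found in 6 of 12 and 6 of 106, and its target S1pr1 in 5 of 12 and 4 of 106. Ccr7 was found in 5 of 12 and 6 of 106, and Tcf7, the partner of Lef1 in naive and memory T cells, in 4 of 12 and 5 of 106. The intervals overlapped for Cd44, an adhesion receptor of activated and memory T cells, found in 6 of 12 cells at 338 CPM (175 to 591) and in 59 of 106 at 451 CPM (370 to 545). They overlapped also for Il7r, found in 3 of 12 cells at 84.5 CPM (17.4 to 247) and in 24 of 106 at 135 CPM (92.2 to 190). Cxcr6 was found in 4 of 12 cells at 169 CPM (62.0 to 368) and in 55 of 106 at 645 CPM (547 to 755), and Maf in 3 of 12 and 46 of 106. Trac was found in 6 of 12 cells at 535 CPM (322 to 836) and in 69 of 106 at 990.1 CPM (868 to 1125), and Icos in 7 of 12 and 57 of 106. Cd4 was found in 4 of 12 and 45 of 106, and Trdc in 2 of 12 and 24 of 106. Gzmb stood at 648 CPM (411 to 972) in the day 1 cells, from 3 of them, and at 303 CPM (237 to 382) in day 6, from 20 cells. Foxp3 and Il17a had no UMI in the 12 cells and were found in 9 and 6 of the 106, a difference that is not detectable with so few cells. Intervals cover counting error only, and with 12 cells of 1 library the share of each gene is uncertain. The part of the library, its tumors or the other cells' RNA in these values was not tested.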

How the data were processed

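Each library's deposited table holds raw UMI counts per barcode and gene; per the study's methods, the authors aligned reads and counted UMIs with dropEst on the GRCm38 build, with 1 file per library and no normalization. The members, gene lists and tests were chosen with earlier results of these data known. Cells were kept with at least 500 genes and at most 15% mitochondrial counts, and the rule was applied to raw counts. Library totals were 5132360, 16904947, 6659486 and 16079367 UMIs (day 1 replicates 1 and 2, day 3, day 6). CPM was computed from counts summed over cells, with exact Poisson intervals, and shares carry exact Clopper-Pearson intervals (95%), which cover counting error only. Ratios had 20 CPM added (50 between gates or sub-clusters). Genes named were the 30 with the highest ratio at 20 or more UMIs in day 6 members, list genes with at least 5 UMIs, and the 10 leading genes (at least 10 UMIs) of each gate or sub-cluster; others are said to be named after their values were seen. The planned model of genes in late against early T cells needed 10 members in each library and was not run, since day 3 held 5. Epcam was planned as the epithelial gate and was not used here; Cdh1 took its place. Doublets were not removed. Sub-clusters used log counts scaled to 10000 per cell, 2000 variable genes without ribosomal protein and mitochondrial genes, 10 principal components, 15 neighbours and Leiden resolution 1 (leidenalg 0.10.2, scanpy 1.11.5, scikit-learn 1.9.0, Python 3.11.15). The functions were tested on simulated data. Late against early shares were compared by an exact permutation test over libraries. Alternatives were the marker threshold, Cd3 chains alone, no limit on other markers, no cell filter, thinning to 1000 UMIs, leaving out each library, gate order and threshold, and clustering settings; added after seeing the data were members with Cd3 or Cd2, members up to 10000 UMIs (also for day 1 beside day 6), and Trac in place of the 5 markers. Some genes of the lists are not reported here.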

Additional observations from a re-analysis of the deposited data

Results flagged for a closer look

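The library of normal colon prepared to enrich stroma entered none of the comparisons above. Of its 1095 kept cells, 20 (1.83%, exact binomial interval 1.12 to 2.81) passed the same T cell rule, which does not by itself show that they are T cells. Of these 20 cells, 7 carried Lck alone, 7 carried a Cd3 chain, 7 carried a receptor constant gene, 5 carried Cd4, 1 carried Cd8a and 0 carried Trdc. At least 2 Cdh1 UMIs were found in 8 of the 20. It came from normal tissue by another dissociation, so its share was not compared with those of the tumors.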

How the results depend on the processing

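The late minus early difference in the share of members had p of 0.333 or more under every alternative run, and its range on leaving out each library was -1.35 (without day 6) to 2.93 (without day 3) percentage points. The day 6 share of members (4.64%) was 12.1% with at least 1 marker UMI, 3.01% with at least 3, 2.41% with at least 2 Cd3 UMIs, 2.26% with at least 2 Trac UMIs and 2.71% after thinning, by construction of those rules. The Trdc gate (19.1%) took 10.2% with at least 1 marker UMI, 36.8% with at least 2 Cd3 UMIs and 6.25% with at least 2 Trac UMIs, the last of which selects for an alpha chain. The Cd8 gate (5.34%) took 12.5% with Trac. The Foxp3 gate (6.87%) took 2.92% with at least 1 marker UMI, 2.94% with Cd3 and 2.29% when gates required 2 UMIs. The Cd4 gate (32.8%) took 14.3% with at least 1 marker UMI and 16.0% when gates required 2 UMIs. Members without a gate (35.9%) were 69.4%, 19.1%, 45.8% and 60.3% with at least 1 marker UMI, with Cd3, after thinning and with gates at 2 UMIs. Leaving out members with Lck alone or members over 10000 UMIs moved none of these shares beyond its interval. Sub-clusters numbered 8, and 3 at resolution 0.5, where the group with most Il17a cells held 51 cells in place of 14; the group with most Ncr1 cells held 11 to 13 cells and 6 of the 7 Ncr1 cells at every setting run. Leaving out members with at least 5 epithelial UMIs removed every member, and the alternatives to the planned model across genes were not run because that model was not run. No paired analysis was possible because no groups compared share 2 replicate numbers.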

Other observations

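Receptor constant genes were also counted in kept cells that were not members. At least 3 Trdc UMIs were found in 3 other cells of day 1 replicate 1 and 5 of day 1 replicate 2, none of which carried a Cd3 chain. Il1rl1, the receptor of interleukin-33, was found in 2 of these 3 and 3 of these 5 cells, with 242 and 273 UMIs in sum. Of the 5 cells of replicate 2, 4 carried Col1a1, a collagen gene of fibroblasts. At least 3 Trbc2 UMIs were found in 11 other cells of day 3, of which 9 had at least 2 Cdh1 UMIs and 1 carried a Cd3 chain. At least 3 Trbc1 UMIs were found in 6 other cells of day 1 replicate 2, all with at least 2 Cdh1 UMIs and a median of 22997 UMIs. In day 6, by contrast, 9 other cells had at least 3 Trdc UMIs, 7 of them with Thy1, 5 with a Cd3 chain and 0 with Il1rl1. No explanation of these counts was tested.

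Penk, whose product gives rise to opioid peptides, was found in 9 day 6 members with 82, 10, 3, 3, 2, 1, 1, 1 and 1 UMIs. Of these cells, 6 carried Cd4, 2 carried Foxp3 and 0 carried Trdc, and Penk was found in 0 of 118 Csf1r cells and 1.60% of Cdh1 cells of that library.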
